A study of Homo sapiens with 6 samples.

Results

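The genes of the constitutive proteasome, its regulators and its assembly factors were followed in SU-DHL-2 cells, an established diffuse large B-cell lymphoma line, with and without the cytokine IL-17A. Members were the genes with an array probe whose RefSeq accession belongs to a symbol starting with PSMA, PSMB, PSMC, PSMD, PSME, PSMF or PSMG. The inducible catalytic subunits PSMB8, PSMB9 and PSMB10, the gene PSMC3IP and pseudogenes were left out. This gave 48 of the 19740 named genes on the array, and 65 of its 34127 probes. Of the 48 genes, 46 code for proteins and 2 are RNA genes named after a neighbour (PSMA3-AS1 and PSMG3-AS1).

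In the treated group the line was exposed to 200 pg/ml IL-17A during 72 h of culture (n = 3), and the control group had the same culture time and medium but no IL-17A (n = 3), so that every value describes 1 dose, 1 time and 1 cell line. Total RNA of each sample was labeled with Cy3 and hybridized to a 1-colour whole human genome array. The labels call the replicates samples and do not say that they came from separate cultures, so p-values measure only the spread between these samples, which may be technical. The comparison asks which genes differ in their RNA level once the lymphoma cells have been kept with IL-17A. The headers of the scanner files put IL-17A replicate 1 and all 3 controls in 1 scan, and IL-17A replicates 2 and 3 in another, from which 2 slides were inferred. Between 23570 and 24077 probes were detected per array, and no spot was saturated. All 9 B-cell markers checked were detected on all 6 arrays, and their summed signal was 68865 to 70604 with IL-17A and 63179 to 67381 in the controls. The summed signals were 253 to 265 and 259 to 274 for 7 T and NK cell markers, all detected on all 6 arrays. They were 141 to 151 and 158 to 205 for the 4 monocyte markers on the array, of which CSF1R was detected on no array. Of 5 mesenchymal markers, COL1A1 alone was detected on all 6 arrays, and the defining markers COL1A2, COL3A1, DCN and LUM were detected on none. The part of these signals in the results was not tested.

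The proteasome is the protease that degrades proteins tagged with ubiquitin. Its 20S core is a stack of outer rings of alpha subunits, which gate the entrance, and inner rings of beta subunits, which hold the catalytic sites, while the 19S cap binds, unfolds and deubiquitinates the substrate. Genes of the complex are known to be induced together by the transcription factor NFE2L1, which binds antioxidant response elements with small Maf partners when proteasome activity is low. B-lineage tumours that make much protein are known for their dependence on the proteasome, and the catalytic subunit PSMB5 is the target of bortezomib.

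RefSeq promoter windows (GRCh38.p14, from 250 bases before to 50 bases after the start of the gene) were at hand for 40 of the 46 protein-coding members. The antioxidant response element was searched as TGACNNNGC on both strands. It was found in 12 of these 40 windows (30.0%), against 13.3% of all 35116 windows of the same length. The matching genes were PSMB3, PSMC4, PSMD1, PSMD3, PSMD5, PSMD9, PSMD12, PSME1, PSME2, PSME4, PSMG1 and PSMG2, with 14 matches in all, 11 of them before the start. The CCAAT box (CCAAT or, on the other strand, ATTGG) was found in 19 of 40 windows (47.5%), against 34.6% of all windows. The palindrome bound by nuclear respiratory factor, which reads the same on both strands, was found in the window of PSMA4 alone, or 2.5% of the windows, against 1.24%. The full set of windows was not matched to those of the members in gene type or base composition, and the difference in shares was not tested. A match is a run of letters and does not show that a factor binds there. The sequences are the 250 bases before the start of those members with values on every array that have a match there. PSME2 is shown as the neighbour of PSME1. Proteasome genes are known to be induced together through such elements, but whether these matches act as elements was not tested. The match is in capitals, PSMD9 has one on each strand, and the windows are chr17:38752491-38752740 on the plus strand (PSMB3), chr12:121888540-121888789 on the plus strand (PSMD9), chr14:24135944-24136193 on the plus strand (PSME1), chr14:24146611-24146860 on the minus strand (PSME2) and chr18:12658488-12658737 on the plus strand (PSMG2).
PSMB3: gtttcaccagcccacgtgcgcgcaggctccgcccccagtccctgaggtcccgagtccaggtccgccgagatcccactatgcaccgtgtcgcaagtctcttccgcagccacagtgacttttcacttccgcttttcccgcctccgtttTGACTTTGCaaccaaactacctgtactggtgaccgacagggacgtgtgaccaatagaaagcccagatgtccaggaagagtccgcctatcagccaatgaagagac
PSMD9: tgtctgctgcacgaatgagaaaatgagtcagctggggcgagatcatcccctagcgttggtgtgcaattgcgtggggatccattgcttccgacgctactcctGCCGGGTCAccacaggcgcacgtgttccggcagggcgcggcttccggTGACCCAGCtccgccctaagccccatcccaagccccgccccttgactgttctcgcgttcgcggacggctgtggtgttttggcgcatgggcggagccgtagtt
PSME1: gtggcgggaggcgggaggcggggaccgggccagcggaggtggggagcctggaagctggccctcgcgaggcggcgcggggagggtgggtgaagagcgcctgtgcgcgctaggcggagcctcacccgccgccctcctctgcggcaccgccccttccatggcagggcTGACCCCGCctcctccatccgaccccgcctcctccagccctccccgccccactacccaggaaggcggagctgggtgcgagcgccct
PSME2: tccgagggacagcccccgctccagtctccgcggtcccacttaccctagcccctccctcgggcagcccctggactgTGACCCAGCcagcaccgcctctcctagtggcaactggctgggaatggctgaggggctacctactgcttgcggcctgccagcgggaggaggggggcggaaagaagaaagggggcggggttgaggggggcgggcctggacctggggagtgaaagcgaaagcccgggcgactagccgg
PSMG2: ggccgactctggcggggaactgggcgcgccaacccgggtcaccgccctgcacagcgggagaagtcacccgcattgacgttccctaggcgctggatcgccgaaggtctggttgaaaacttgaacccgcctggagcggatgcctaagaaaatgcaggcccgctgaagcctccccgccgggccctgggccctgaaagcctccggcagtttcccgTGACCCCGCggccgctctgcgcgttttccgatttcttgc

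Of the 46 protein-coding members, 44 could be tested, and all 44 were detected on all 6 arrays. The median log2 signal of the 44 was 10.92, against 7.84 over the 14747 named genes tested, where a gene is represented by its brightest tested probe. PSMA8, the testis form of an alpha subunit, was detected on 0 of 6 arrays, and each of the 2 probes of PSMB11, the catalytic subunit of the thymus, was detected on 1 of 6 arrays, so both were left out of the test. Signals were background-subtracted, quantile normalized and put on the log2 scale, and all differences below are IL-17A minus control on that scale. Since quantile normalization sets the arrays to 1 common distribution, a difference is relative to the other genes of the array. In a bulk RNA sample, fewer cells of a type and less RNA per cell cannot be told apart.

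Proteasome RNA differed little between the groups, and most members lay slightly lower with it. Among the 44 protein-coding members, 34 were lower and 10 higher (77.3% lower, against 49.1% lower and 50.9% higher of all genes tested), with a median log2 difference of -0.06, against 0.00 over all genes. The alpha subunit PSMA7 alone passed limma's test at an adjusted p under 0.05, and it fell. This was 1 of the 46 members tested, RNA genes included, against a background of 7.85% of all genes (3.48% lower and 4.37% higher). No member passed a fold change of 1.5 with an unadjusted p under 0.05, which 1.92% of all genes did. At an unadjusted p under 0.05 without a limit on the fold, 13 members were lower and 3 higher, while the background was 14.8% and 16.9%, or 31.8% in all. The IL-17A and control arrays did not overlap for 18 members that were lower and 3 that were higher, with a background of 19.3% and 21.4%.

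**Figure D1:**
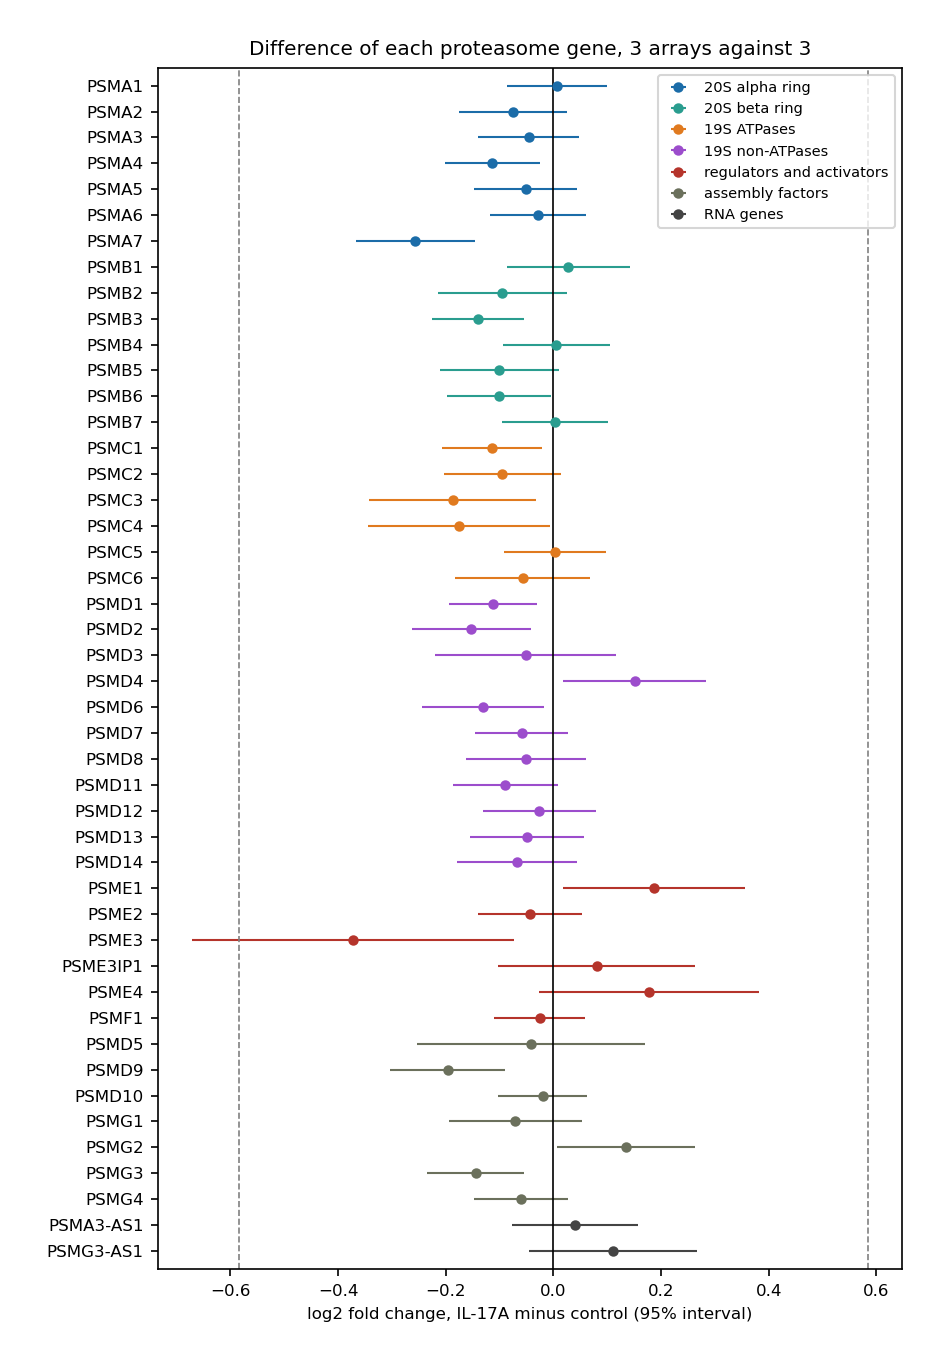
Log2 fold change (IL-17A minus control, x axis) of the 46 members tested, with its 95% interval from limma, coloured by role; the dashed lines mark a fold change of 1.5 (0.58 on the log2 scale) in each direction. Most points lie a little to the left of 0, and the interval of PSME3 alone crosses a dashed line.

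The intervals around the differences were narrow, but they measure only the spread between these samples, which may be technical. For 43 of the 44 genes the 95% interval of the difference lay within a fold change of 1.5 in either direction, as it did for 84.2% of all genes tested. PSME3 was the exception, with an interval from -0.67 to -0.07. These intervals leave the slide out of the model, and with the slide as a block they were within that fold for 44 of 44 members and 77.0% of all genes. Since the other slide held no control, the difference with the slide as a block is IL-17A replicate 1 minus the controls. It equals the difference on the shared slide, so the block and the shared slide are not separate checks. The median standard error of the difference was 0.043 over the 44 genes, against 0.061 over all genes tested. The 44 genes were also brighter (median log2 signal 10.92 against 7.84), and the part of the signal level in this was not tested.

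The lower values were seen on each IL-17A array. Relative to the mean of the controls, the median of the 44 genes was -0.04 on IL-17A replicate 1, -0.07 on replicate 2 and -0.06 on replicate 3, with 33, 37 and 36 genes below the control mean. The 3 control arrays had medians between -0.01 and 0.01. All 3 IL-17A arrays were below the control mean for 30 of the 44 genes (68.2%, against 31.1% of all genes tested), and all 3 were above it for 4 (34.0% of all genes). On the slide that held both groups, where IL-17A replicate 1 can be set against the 3 controls, the median was -0.04, with 33 genes lower and 11 higher (47.8% of all genes were lower there and 52.1% higher). With the slide as a block, 5 members were lower and 1 higher at an unadjusted p under 0.05, while the background was 11.1% and 11.2%.

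**Figure D2:**
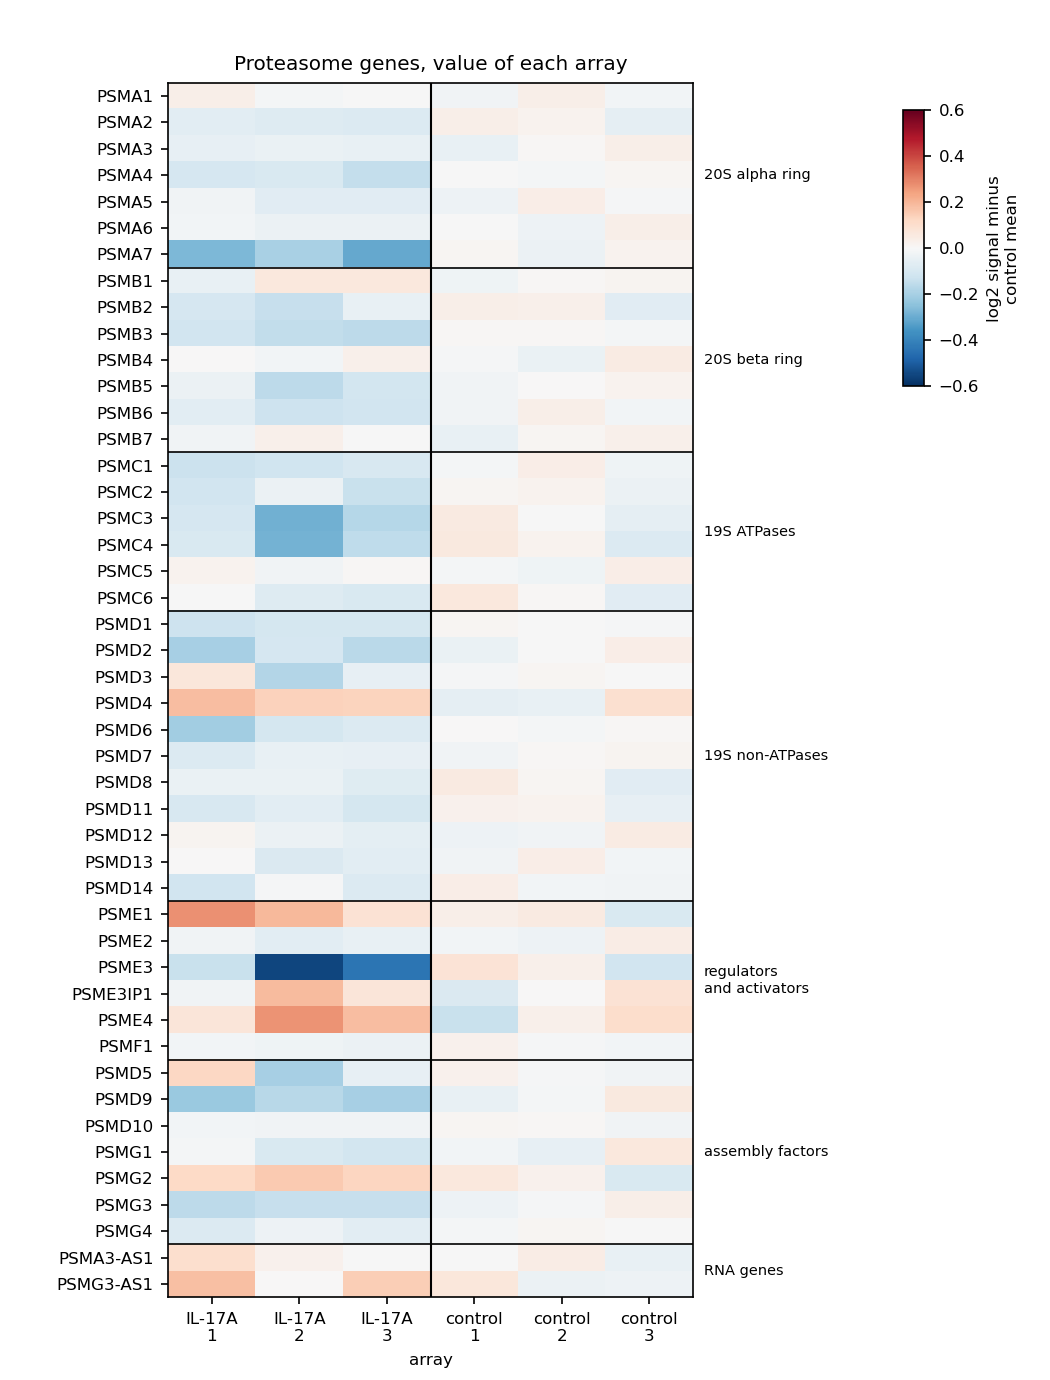
Log2 signal minus the mean of the 3 controls (colour scale from -0.6 to 0.6) for each of the 46 members (vertical axis, by role) on each of the 6 arrays (horizontal axis). PSMA7 is low on all 3 IL-17A arrays, PSME3 is lowest on IL-17A replicates 2 and 3, and most other members are pale.

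**Figure D3:**
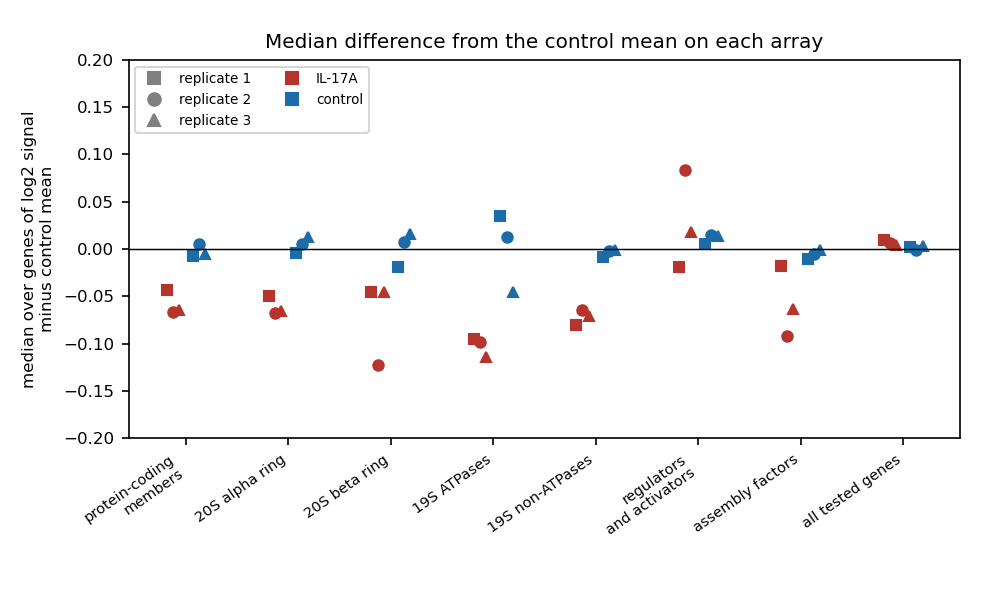
Median over the genes of each role of the log2 signal minus the control mean (y axis), with 1 point for each array, red for IL-17A and blue for control, and the replicate by shape. The IL-17A points of the rings and of both parts of the cap lie below their control points, those of the regulators are mixed with them, and those of all tested genes lie within 0.01 of 0.

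The alpha ring, which forms the gate of the core, had 7 members tested, of which 6 were lower and 1 higher, with a median of -0.05. PSMA7 had log2 signals of 10.39, 10.46 and 10.35 on IL-17A replicates 1 to 3 and of 10.67, 10.62 and 10.68 on the controls. All IL-17A arrays were below all controls, and the closest pair was 10.46 against 10.62. PSMA7 fell by 0.26 ± 0.04 on the log2 scale (SE), or 1.19-fold (adjusted p = 0.0372 by limma). The difference was -0.27 on the shared slide. Its adjusted p was 0.0615 with the 75th percentile in place of quantile normalization, 0.127 with the slide as a block and 0.128 with a replicate block. It ranged from 0.0649 to 0.137 when each array in turn was left out. With an array left out, 1 to 608 of 14747 genes passed, or up to 4.12%, against 7.85% with all arrays. With the 75th percentile 5.89% passed. Why the PSMA7 call was lost under these settings was not tested. PSMA1, another alpha subunit, had 11.92, 11.87 and 11.88 with IL-17A and 11.86, 11.92 and 11.87 in the controls. Its groups overlapped, with a difference of 0.01 (95% interval -0.09 to 0.10). PSMA4 differed by -0.11 without overlap (adjusted p = 0.0988), and PSMA2 by -0.08 without overlap, while PSMA3, PSMA5 and PSMA6 differed by -0.05 to -0.03 with overlap.

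The beta ring had 7 members tested, of which 4 were lower and 3 higher, with a median of -0.10, and none passed the adjusted test. PSMB5, the chymotrypsin-like catalytic subunit, had 11.06, 10.95 and 10.99 with IL-17A and 11.08, 11.10 and 11.12 in the controls. Every IL-17A array was below every control, but replicate 1 by little, and the difference was -0.10 ± 0.04 (SE, adjusted p = 0.189) over all arrays and -0.04 on the shared slide. PSMB6, the caspase-like catalytic subunit, had 11.91, 11.85 and 11.85 against 11.95, 12.00 and 11.95. Its groups did not overlap either, and the difference was -0.10 ± 0.04 (SE, adjusted p = 0.147). PSMB7, the trypsin-like catalytic subunit, had 12.01, 12.06 and 12.03 against 11.99, 12.05 and 12.06. Its groups overlapped, and the 95% interval of its difference ran from -0.10 to 0.10. The differences between the 3 catalytic subunits were not tested.

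Of the beta subunits without catalytic activity, PSMB3 had the lowest p. It had 12.49, 12.46 and 12.45 with IL-17A and 12.61, 12.61 and 12.59 in the controls, with a gap between the groups wider than the spread within either. The difference was -0.14 ± 0.03 (SE, adjusted p = 0.063). Its upstream window, shown above, holds a match to the antioxidant response element at positions -104 to -96 from the start. PSMB1 had 12.87, 12.98 and 12.98 against 12.90, 12.93 and 12.94, with overlap and a difference of 0.03 ± 0.05 (SE). A dimmer probe of PSMB1 was higher on all IL-17A arrays, by 0.10 (adjusted p = 0.109). PSMB2 differed by -0.10 and PSMB4 by 0.01, each with overlap.

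The base of the 19S cap holds 6 ATPases that unfold the substrate, of which 5 were lower and 1 higher, with a median of -0.10. None passed the adjusted test, and PSMC1, PSMC3 and PSMC4 did not overlap between the groups. PSMC1, which helps to open the gate, had 11.68, 11.69 and 11.71 with IL-17A and 11.79, 11.85 and 11.78 in the controls. All IL-17A arrays were lower, with a difference of -0.11 ± 0.04 (SE, adjusted p = 0.108), and its second probe differed by -0.09, also without overlap. RefSeq names 13 pseudogenes after PSMC1, so its probes may also bind their RNA. PSMC3 and PSMC4 had the largest differences of the ATPases, -0.19 ± 0.06 and -0.18 ± 0.07 (SE), and both were lowest on IL-17A replicate 2. On the shared slide the values were -0.10 for PSMC3 and -0.09 for PSMC4. PSMC5 had 9.28, 9.24 and 9.26 against 9.24, 9.23 and 9.30, with overlap and a 95% interval of -0.09 to 0.10. PSMC2 differed by -0.10 and PSMC6 by -0.06, both with overlap.

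The 11 subunits of the cap that are not ATPases, which include a ubiquitin receptor and a deubiquitinating enzyme, had 10 lower and 1 higher, with a median of -0.06. PSMD2, a scaffold that binds ubiquitin shuttles, had 12.81, 12.91 and 12.85 with IL-17A and 12.97, 13.01 and 13.05 in the controls. All IL-17A arrays were lower, and the difference was -0.15 ± 0.04 (SE, adjusted p = 0.0866). The second probe of PSMD2 differed by -0.11. PSMD4, a ubiquitin receptor, was the single member of this class on the higher side, with 12.94, 12.90 and 12.89 against 12.71, 12.72 and 12.85. Its groups did not overlap, although control replicate 3 came close, and the difference was 0.15 ± 0.05 (SE, adjusted p = 0.126).

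PSMD1, the large scaffold of the cap, was named after its values were seen, because it holds the other called probe among the 62 tested probes of members. That dimmer probe had 9.33, 9.31 and 9.36 with IL-17A and 9.58, 9.54 and 9.55 in the controls. It fell by 0.22 ± 0.04 on the log2 scale (SE, adjusted p = 0.0355 by limma, where 7.59% of all probes tested were called). The adjusted p of this probe was 0.123 with the slide as a block, 0.125 with a replicate block and 0.0521 with normexp background correction. The brighter probe of PSMD1 was also lower on all IL-17A arrays, by -0.11 ± 0.03 (SE, adjusted p = 0.0868). PSMD6 differed by -0.13 without overlap, and was lowest on IL-17A replicate 1, with -0.21 on the shared slide. PSMD7 and PSMD11 also did not overlap, at -0.06 and -0.09. PSMD14, the deubiquitinating enzyme of the cap, differed by -0.07 with overlap, as did PSMD3, PSMD8, PSMD12 and PSMD13, which differed by -0.05 to -0.03.

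The regulators and activators were divided, with 3 lower and 3 higher and a median of 0.03. PSME3, the nuclear activator of the core known as PA28gamma, had the largest difference of all members at the brightest probe. It had 9.17, 8.75 and 8.86 with IL-17A and 9.38, 9.33 and 9.18 in the controls. IL-17A replicates 2 and 3 were well below the controls, while IL-17A replicate 1 lay just under the lowest control. The difference was -0.37 ± 0.12 (SE, adjusted p = 0.106), and on the shared slide it was -0.13. Since replicates 2 and 3 are those on the other slide, the treatment and the slide cannot be told apart for the larger part of this difference.

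PSME1 and PSME2 encode the interferon-inducible activator PA28, and lie close together in the genome with 1 gene between them. PSME1 had 6.70, 6.62 and 6.51 with IL-17A and 6.46, 6.48 and 6.33 in the controls. The groups did not overlap by a narrow margin, and the difference was 0.19 ± 0.07 (SE, adjusted p = 0.133), with 0.28 on the shared slide but 0.05 with normexp background correction. PSME2 differed by -0.04 (95% interval -0.14 to 0.05) with overlap, and RefSeq names 6 pseudogenes after it. Their upstream windows, shown above, each hold a match to the antioxidant response element, at -86 to -78 and at -175 to -167 from the start. PSME4, the activator PA200, differed by 0.18 ± 0.08 (SE, adjusted p = 0.205) at its brighter probe and by -0.08 at its dimmer one. PSMF1, an inhibitor of the core, differed by -0.03 at its brightest probe and by 0.003, 0.19 and -0.02 at its dimmer ones. PSME3IP1, a protein that binds PSME3, differed by 0.08 at its brighter probe and by -0.02 at its dimmer one.

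The assembly factors had 6 lower and 1 higher of 7 tested, with a median of -0.06. PSMD9, a chaperone of the ATPase ring, came close to the threshold, with 11.21, 11.27 and 11.23 with IL-17A and 11.39, 11.42 and 11.49 in the controls. Every IL-17A array was below every control, and the difference was -0.20 ± 0.04 (SE, adjusted p = 0.0532), with -0.22 on the shared slide. A second, faint probe of PSMD9 also differed by -0.20, with overlap. PSMG2, which pairs with PSMG1 to start the alpha ring, had 9.26, 9.30 and 9.27 against 9.21, 9.17 and 9.05. All IL-17A arrays were higher, and the difference was 0.14 ± 0.05 (SE, adjusted p = 0.145), while its partner PSMG1 differed by -0.07 with overlap. PSMG3 and PSMG4, the other pair of alpha ring chaperones, differed by -0.14 (adjusted p = 0.0657) and -0.06, both without overlap. PSMD10 differed by -0.02 at its brighter probe and by 0.17 at its dimmer one, and PSMD5 by -0.04 and 0.19. The RNA genes PSMA3-AS1 and PSMG3-AS1 both overlapped between the groups. PSMG3-AS1 had 7.41, 7.23 and 7.37 with IL-17A and 7.29, 7.19 and 7.19 in the controls, a difference of 0.11 ± 0.06 (SE), and PSMA3-AS1 differed by 0.04.

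Different probes of a gene did not always lie on the same side of 0. Of the 13 protein-coding members with several tested probes, 6 had probes on both sides of 0 (PSMA1, PSMD5, PSMD10, PSME3IP1, PSME4 and PSMF1), and for none of these did a probe pass the adjusted test. PSMB1, PSMB2, PSMC1, PSMD1, PSMD2, PSMD9 and PSMG4 had all their probes on 1 side.

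**Figure D4:**
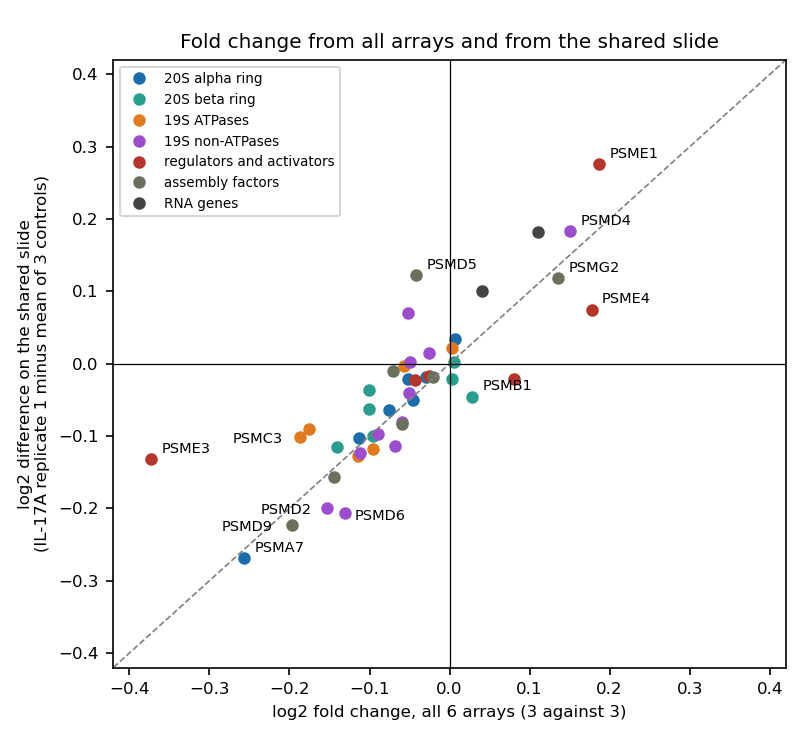
Log2 fold change from all 6 arrays (x axis) against the difference on the shared slide, IL-17A replicate 1 minus the mean of the 3 controls (y axis), with 1 point per member coloured by role and the dashed line marking equal values. PSMA7 lies near the line, PSME3 lies well above it (-0.37 against -0.13), and PSMD5 changes side (-0.04 against 0.12).

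The shared slide gave the same sign as all arrays for 37 of the 44 genes, and a smaller size for 19 of these 37. Of the 3 IL-17A arrays, replicate 1 was the closest to the control mean for 21 of the 44 genes, replicate 2 for 13 and replicate 3 for 10. Over all genes tested, replicate 1 was the closest for 37.1%. These values share the control arrays with the main comparison and are a description.

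The 12 tested members with a match had a median of -0.05, with 9 lower and 3 higher, and ranged from -0.20 (PSMD9) to 0.19 (PSME1). The 26 tested members with a window and no match had a median of -0.06, with 22 lower and 4 higher. For the CCAAT box the medians were -0.07 over 18 members with a match and -0.05 over 20 without one.

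A list of 40 partners of the proteasome, fixed as a list of other genes of the pathway, had 36 members tested, of which 19 were higher and 17 lower, with a median of 0.01. PAAF1, NGLY1 and MAFF passed the adjusted test, all on the higher side, and none passed a fold change of 1.5. These 3 are 8.33% of the partners tested, near the 7.85% of all genes. At an unadjusted p under 0.05, 5 partners were higher and 5 lower, or 13.9% each way, against 16.9% and 14.8% of all genes. The inducible catalytic subunits, which replace the constitutive ones in the immunoproteasome, stayed within 0.01 of 0 (PSMB8, PSMB9 and PSMB10, each with overlap). PSMB8 had 9.35, 9.34 and 9.37 with IL-17A and 9.35, 9.37 and 9.34 in the controls, with a 95% interval from -0.09 to 0.08. PSMB9 had 9.62, 9.61 and 9.69 against 9.64, 9.66 and 9.61, with an interval from -0.10 to 0.11. PSMB10 had 12.55, 12.65 and 12.64 against 12.53, 12.63 and 12.64, with an interval from -0.12 to 0.14. All 3 had interleaved groups. POMP, the assembly factor of the beta ring, had 8.24, 8.14 and 8.11 against 8.10, 8.32 and 8.26, a difference of -0.06 ± 0.07 (SE) with overlap.

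PAAF1, which binds the ATPases of the cap and holds it apart from the core, had 11.07, 11.11 and 11.12 with IL-17A and 10.82, 10.89 and 10.93 in the controls. All IL-17A arrays were higher, and PAAF1 rose by 0.22 ± 0.05 on the log2 scale (SE, adjusted p = 0.0473 by limma). NGLY1, the deglycosylating enzyme that NFE2L1 needs to become active, had 12.51, 12.58 and 12.58 against 12.35, 12.33 and 12.37. Its groups were clearly apart, and NGLY1 rose by 0.20 ± 0.04 (SE, adjusted p = 0.0425 by limma). MAFF, a small Maf protein, had 5.65, 5.56 and 5.60 against 5.26, 5.37 and 5.31. It rose by 0.29 ± 0.05 (SE, adjusted p = 0.036 by limma), but by 0.10 with normexp (adjusted p = 0.0664) and 0.22 in the authors' log2 table (adjusted p = 0.0686), where the call was lost. NFE2L1 itself had 10.78, 10.78 and 10.74 against 10.42, 10.43 and 10.68. Control replicate 3 lay close to the IL-17A arrays, the groups did not overlap, and the difference of 0.26 ± 0.08 (SE) did not pass the test (adjusted p = 0.0955). NFE2L1 did pass in limma with normexp (0.25, adjusted p = 0.0492) and with a variance trend (0.26, adjusted p = 0.0397). The other small Maf genes MAFG and MAFK, named after their values were seen, differed by -0.19 and -0.07 and did not pass the adjusted test. ADRM1, a ubiquitin receptor of the cap also named after its values were seen, had the largest difference on the lower side, with 7.31, 7.16 and 7.24 against 7.62, 7.52 and 7.44. All its IL-17A arrays were below all controls, and the difference of -0.29 ± 0.07 (SE, adjusted p = 0.0558) missed the threshold here but passed it with normexp (-0.21, adjusted p = 0.0176). With the slide or the replicate number as a block, 0 of the 36 partners passed the adjusted test, and no more than 1 did when any single array was left out.

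**Figure D5:**
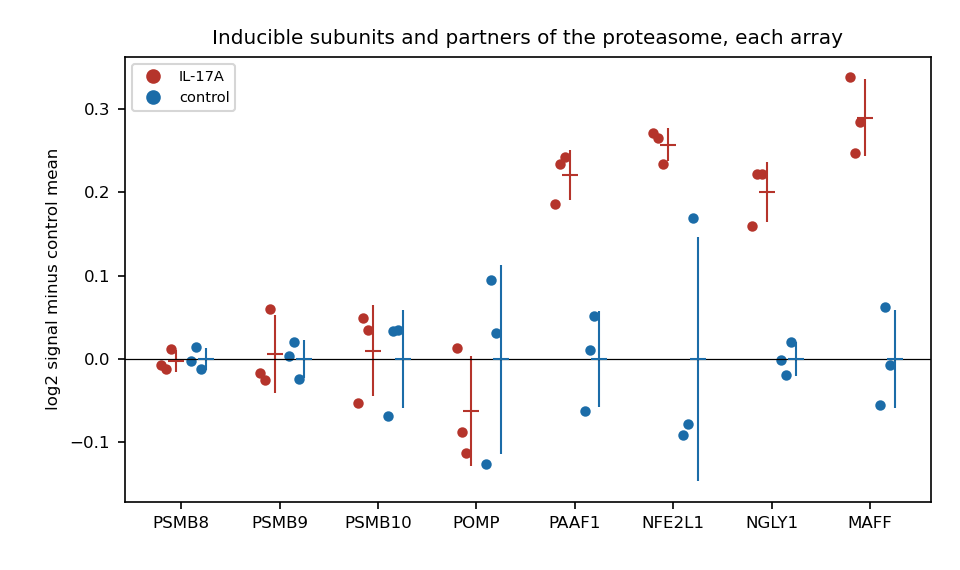
Log2 signal minus the mean of the 3 controls (y axis) for the inducible subunits PSMB8, PSMB9 and PSMB10 and for POMP, PAAF1, NFE2L1, NGLY1 and MAFF, with 1 point per array, red for IL-17A and blue for control, and bars for the mean ± SD (n = 3). The IL-17A points of PAAF1, NFE2L1, NGLY1 and MAFF lie above all their control points, with control replicate 3 of NFE2L1 the nearest, and those of the first 4 genes are mixed with their controls.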

How the data were processed

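For each array the authors deposited the output of Agilent Feature Extraction 11.0.1.1. It holds a linear intensity for each spot after background subtraction, with flags of 0 or 1 for detection. The authors also deposited a table of quantile-normalized log2 values, used here as an alternative. Control and non-uniform spots were removed, intensities under 1 were raised to 1, log2 values of replicate spots were averaged, and quantile normalization followed, as the methods state. Testing covered the 23945 probes that were detected (positive, significant and well above background) on at least 3 of 6 arrays. Groups came from the titles. IL-17A was compared with control in limma 3.58.1 under R 4.3.3, with two-sided tests, no covariate, and p-values adjusted by Benjamini-Hochberg across the tested probes. The procedure was tested on simulated data. Probes were named through RefSeq accessions (GRCh38.p14), and no probe coordinates were used because the array annotation predates that build. Each gene was represented by the brightest of its tested probes. With 3 arrays against 3, an exact permutation test cannot give a p below 0.1, so p-values come from the fit across all probes. The number of arrays limits the precision.

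The members, role classes, motifs and gene lists were chosen with earlier results of these data known. Values on every array are given for the catalytic subunits, for the lowest p on each side of every role class, for the called partners, and for PSMB8, PSMB9, PSMB10, POMP and NFE2L1. Those of PSMD1 and ADRM1 were added after they were seen.

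Alternatives were scaling to the 75th percentile or none, normexp with an offset of 50 on the median signals, the authors' log2 table, other detection filters, a variance trend, the methods' t-test, blocks by replicate number or by slide, the shared slide alone, the mean or second brightest of the probes of a gene, and leaving out single arrays.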

Additional observations from a re-analysis of the deposited data

How the results depend on the processing

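Of the 46 members, 1 passed the adjusted test as reported. The number was 0 with the 75th percentile, without normalization between arrays, with slide as a block and on slide 1 alone, and 2 with the authors' log2 table, with detection on all 6 arrays, with the mean over the probes of a gene and with the second brightest probe. It was 3 without a filter on detection, 4 with the methods' t-test after Benjamini-Hochberg adjustment, 6 with normexp and 9 with a variance trend, and 0 whichever array was left out (0 to 0). Every call under these alternatives was lower with IL-17A. PSMA7 was among those made with the log2 table, the other filters, the t-test, normexp and the trend, and PSMD9 was among those made with the log2 table, detection on all 6 arrays, normexp and the trend. The cause was not tested. Of all 14747 genes, 7.85% passed as reported, 5.89% with the 75th percentile, 0.19% without normalization, 9.9% with normexp, 8.77% with the log2 table, 5.93% with the t-test, 17.7% with the trend, 0.21% with slide as a block, 0.115% on slide 1 alone, 8.11% with the mean over probes and 7.69% with the second brightest probe. The share was 11.2% of 13903 genes detected on all 6 arrays and 4.81% of 19740 genes without a filter. Between 1 and 608 of the 14747 genes passed with an array left out, the highest without control replicate 3.

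The replicate numbers did not pair the samples: deviations of same-numbered arrays from their group means correlated at -0.087, -0.0022 and -0.047. With a replicate block 0 members, 0 partners and 3 of all genes passed. For the partners, 3 passed as reported, 0 without normalization, with slide as a block and on slide 1 alone, 5 with the second brightest probe (4 higher and 1 lower), 8 with the trend (5 higher and 3 lower), and 0 to 1 with each array left out. It was 4 with normexp (3 higher, and ADRM1 lower) and 4 with detection on all 6 arrays (3 higher, and ADRM1 lower). NGLY1 and PAAF1 were not called with the 75th percentile, nor NGLY1 and MAFF with normexp.

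No member passed a fold change of 1.5 with an unadjusted p under 0.05 in any of these alternatives, the t-test included, where 16 members had an unadjusted p under 0.05 at any fold. The median difference of the 44 genes stayed below 0 in all of them, from -0.08 (without IL-17A replicate 1) to -0.03 (without normalization), and the median of all genes moved between -0.01 and 0.02. For the 24 genes named by the rule, without PSMD1 and ADRM1, there were 456 values under an alternative: 48 no longer passed the test, 15 newly passed, and 34 had the other sign, all for genes whose unadjusted p was 0.05 or more.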
